A study of Mus musculus with 2 samples.

Results

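The miR-181 family of the mouse was followed here through its 6 hairpin genes, Mir181a-1, Mir181a-2, Mir181b-1, Mir181b-2, Mir181c and Mir181d, taken by name from the 1174 miRNA hairpin genes with a Mir symbol in the GENCODE M21 annotation. All 6 were found, and all 6 had reads. The data are small RNA sequences of J1 embryonic stem cells (strain 129S4/SvJae), an established line grown without feeder cells on gelatin in serum replacement medium with 1000 U/mL LIF. A single library was made after 6 h with the solvent DMSO and another after 6 h with 1 µM SC1, a compound known to promote self-renewal, to look for miRNAs that SC1 regulates. With 1 library of 1 line in each condition no value has a replicate error.

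The deposited lists do not allow the conditions to be compared for any member. Tag lengths run from 18 to 44 nt in the DMSO list (18870345 reads) and from 3 to 17 nt in the SC1 list (1275599 reads). They have 0 tags in common. DMSO tags of 18 to 26 nt and SC1 tags of 15 to 17 nt that matched a hairpin exactly were therefore described separately, over 2177993 and 53343 hairpin reads. As a check of the cell type, the genes of the miR-290 to miR-295 cluster, which marks mouse embryonic stem cells, held 27.2% of the DMSO hairpin reads over the 6 of 7 listed genes in the reference. The 5 blood genes together held 0.0285%, with Mir223 at 0 reads, Mir142 at 304 and Mir150 at 298. The fibroblast list (Mir214 at 0) held 0.141%, the neural list 0.241% and the muscle list 0.139%, and the part of other cell types in the miR-181 values was not tested.

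A miRNA gene is transcribed as part of a longer RNA, from which Drosha frees a hairpin and Dicer then cuts a duplex of a 5p and a 3p strand. One strand is usually loaded into an Argonaute protein and kept, while the other, the star strand, is mostly degraded. The seed, bases 2 to 8, is the main part that pairs with target mRNAs, so products with 1 seed are treated as a family. miR-181 is best known from lymphocytes, where miR-181a tunes the sensitivity of T cells to antigen, and its products come in pairs from 3 clusters.

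The mature sequences of RefSeq (GRCm38.p6) are printed with the seed in capitals, because the small differences between them decide which reads can be placed. The 5p strands are the main products of the family and have a common seed, which only these 4 of the 1679 mature names in the table carry.
miR-181a-5p: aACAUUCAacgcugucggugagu
miR-181b-5p: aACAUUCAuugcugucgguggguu
miR-181c-5p: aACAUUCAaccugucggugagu
miR-181d-5p: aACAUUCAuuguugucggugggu
Positions are counted from 1 at the 5′ end. Over the annotated length miR-181b-5p differs from miR-181d-5p by the single change U12C, and miR-181c-5p is miR-181a-5p without the base G11. miR-181a-5p has the same sequence in Mir181a-1 and Mir181a-2, and miR-181b-5p in Mir181b-1 and Mir181b-2, so 5p reads within the annotated length cannot be given to 1 copy.

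The 3p strands differ between all 6 hairpins and are shown because they separate those copies.
miR-181a-1-3p: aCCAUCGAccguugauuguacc
miR-181a-2-3p: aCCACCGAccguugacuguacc
miR-181b-1-3p: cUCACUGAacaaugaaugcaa
miR-181b-2-3p: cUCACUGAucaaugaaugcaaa
miR-181c-3p: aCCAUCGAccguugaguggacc
miR-181d-3p: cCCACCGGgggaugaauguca
Seeds were common to miR-181a-1-3p and miR-181c-3p, and to miR-181b-1-3p and miR-181b-2-3p. The 3p strand of Mir181a-2 departs from that of Mir181a-1 inside the seed (U5C) and again at U16C. miR-181b-2-3p carries A9U against miR-181b-1-3p.

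The 3 clusters lie on chromosomes 1, 2 and 8, with coordinates of GRCm38. On chromosome 1, plus strand, Mir181a-1 (137966455 to 137966541) and Mir181b-1 (137966639 to 137966718) are 97 bases apart. Both lie in an intron of the non-coding gene Gm4258 and overlap an exon of the lincRNA gene A430106G13Rik on the same strand. On chromosome 2, plus strand, Mir181a-2 (38852735 to 38852810) and Mir181b-2 (38853830 to 38853918) are 1019 bases apart, opposite to an intron of Nr6a1, which encodes an orphan nuclear receptor. On chromosome 8, minus strand, Mir181c (84178873 to 84178961) and Mir181d (84178716 to 84178787) are 85 bases apart within an intron of Nanos3, the gene of a germ cell RNA-binding protein.

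In the DMSO library the family was mostly miR-181d-5p. The 6 hairpins held 50817 of the 2177993 hairpin reads, or 2.33% (95% interval 2.31 to 2.35), and miR-181d-5p held 88.4% of those. Intervals are exact binomial ones (Clopper-Pearson). They cover counting error only: the tags carry no molecular identifiers, so copies of 1 molecule made by PCR are counted as separate reads. For scale, the miR-30 family held 0.643% of hairpin reads, the miR-15/16 family 0.427% and the miR-26 family 0.370%. The miR-15/16 values cover the 6 of 7 listed genes in the reference, from a list that includes Mir195a, Mir497a and Mir322. In these families the leading arm held 44.5% (miR-30d-5p), 57.1% (miR-16-5p) and 51.3% (miR-26a-5p) of the reads of its family.

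Levels are given in reads in each 1000000 hairpin reads (RPM), with the copies of a gene counted as one for 5p strands and for ranks. miR-181d-5p had 44939 reads, 20633 RPM (interval 20445 to 20823), and was 13th of 1017 arms with reads (27th by distinct tags). Its neighbours in that order were miR-191-5p at 21414 RPM (21222 to 21607) and miR-295-3p, of the stem cell cluster, at 19387 RPM (19204 to 19571). The counting intervals of these 3 did not overlap.

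The other 5p strands followed far below. miR-181c-5p, from the hairpin next to Mir181d, had 2611 reads, 1199 RPM (interval 1153 to 1246). miR-181b-5p had 1460 reads, 670 RPM (636 to 706), and miR-181a-5p, the member best known from T cells, had 991 reads, 455 RPM (427 to 484). The order d, c, b, a had no overlap of counting intervals between neighbours.

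Among the 3p strands, miR-181c-3p led with 685 reads, 314 RPM (interval 291 to 339), or 66.9 RPM when only tags of 20 to 24 nt were counted. miR-181a-2-3p had 88 reads, 40.4 RPM (32.4 to 49.8), and miR-181d-3p 36 reads, 16.5 RPM (11.6 to 22.9). The remaining 3p strands were near the lower limit of the data, with 3 reads for miR-181a-1-3p, 3 for miR-181b-2-3p and 1 for miR-181b-1-3p. These last values do not differ beyond counting error.

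**Figure D1:**
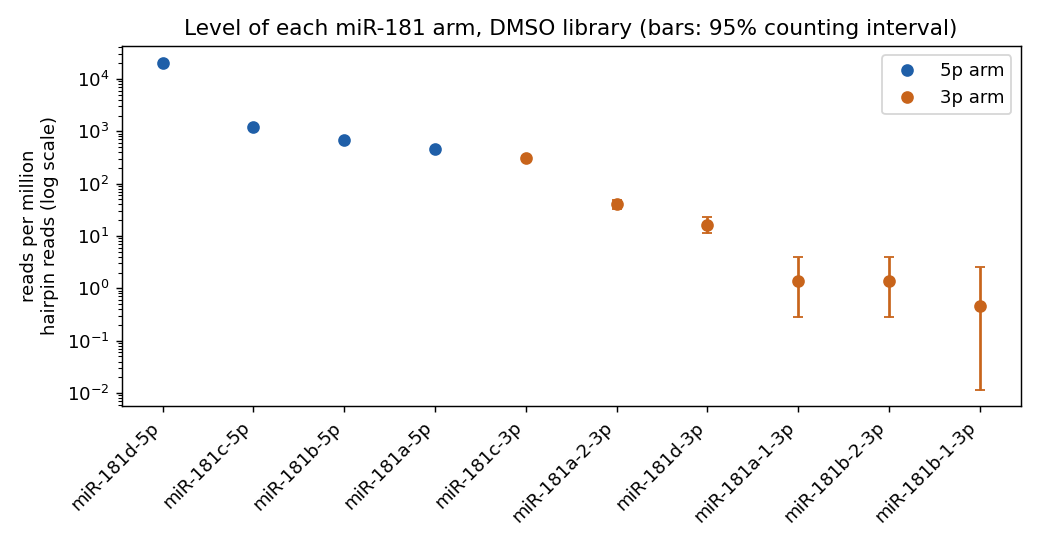
Level of each miR-181 arm in the DMSO library, in RPM on a log axis, with blue points for 5p and orange points for 3p arms and bars for the 95% counting interval. miR-181d-5p, at 20633, stands far above miR-181c-5p at 1199, and the lowest arms rest on 1 to 3 reads.

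Since miR-181b-5p is 1 base away from the much more abundant miR-181d-5p, misread miR-181d-5p tags could add to it. The main miR-181d-5p tag, of 24 nt, had 35007 reads, and the tag with T12C, which is the main miR-181b-5p tag, had 993, or 2.84% of that number. The same kind of change, T to C, was seen at the 9 other T positions with a median of 5 reads and at most 18 (T19C, 0.0514%). Over the 68 other single changes before the last base the median was 3 reads and the highest 44 (T23A, 0.126%). Reads of miR-181b-5p were thus far more frequent than any other inner change of the miR-181d-5p tag. At the last base T24A reached 2247 reads, a tag that also reads as an A added to the 23 nt form.

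**Figure D2:**
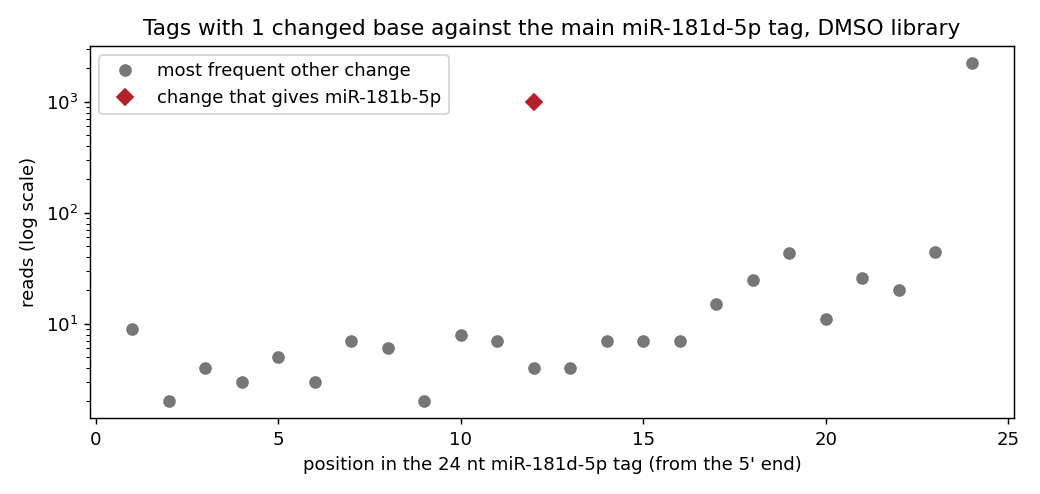
Reads of DMSO tags with 1 changed base against the 24 nt miR-181d-5p tag, by position from the 5′ end on a log axis. Grey points give the most frequent other change at each position, and the red diamond the change at position 12 that gives miR-181b-5p, with 993 reads. Grey points before the last position stay at or below 44.

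By locus, nearly all placed reads came from chromosome 8. Tags that match only Mir181c or Mir181d made up 48271 reads, 94.99% of the family (interval 94.8 to 95.2). Another 2261 reads (4.45%) fitted 1 hairpin on chromosome 1 and 1 on chromosome 2 equally well. Tags that match only chromosome 2 had 280 reads (0.551%) and those that match only chromosome 1 had 5 (0.00984%).

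The star strands split the copies of miR-181a on chromosomes 1 and 2 unevenly, while those of miR-181b had too few reads to tell. For miR-181a, 88 of 91 3p reads (96.7%, interval 90.7 to 99.3) were from Mir181a-2 on chromosome 2 and 3 from Mir181a-1 on chromosome 1. For miR-181b the 3p reads were 3 from chromosome 2 and 1 from chromosome 1, too few to place the 5p strand (interval for chromosome 2 from 19.4 to 99.4%). How the 991 and 1270 undivided 5p reads of miR-181a and miR-181b fall between the loci cannot be read from these star counts without knowing that the copies keep the same ratio of arms, which was not tested.

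Of the 280 reads of chromosome 2 alone, 189 were 5p tags of Mir181b-2, and they are less certain than the star reads. All of them run into the base after the 24 nt form, which is T in Mir181b-2 and G in Mir181b-1. The 25 nt tag with T had 179 reads, 18.0% of the 24 nt tag (interval 15.3 to 21.2), and the tag with G had 1. Intervals in this paragraph are exact binomial ones for the share of the 25 nt tag in both tags together, restated as a ratio to the 24 nt tag. For miR-181d-5p, where the template has G, the untemplated T was found on 4269 reads, 12.2% of its 24 nt tag (11.8 to 12.6), and the templated G on 265, 0.757%. A T added after cutting and the T of Mir181b-2 therefore cannot be told apart.

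The ratio of the arms differed widely between Mir181c, Mir181d and the pooled copies of miR-181a and of miR-181b, and 5p led in each of these 4. Over the family 98.4% of reads were 5p (interval 98.3 to 98.5), and 86.6% once Mir181d was left out, a setting chosen after seeing the data. Mir181d gave 44939 5p and 36 3p reads, a ratio of 1248 to 1. Its partner Mir181c gave 2611 5p and 685 3p reads, so that 79.2% were 5p (77.8 to 80.6). The hairpins of miR-181b gave 1460 5p and 4 3p reads (99.7% 5p, 99.3 to 99.9) and those of miR-181a 991 and 91 (91.6%, 89.8 to 93.2).

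The neighbouring hairpins on chromosome 8 thus differed in the share of the 3p strand. Against the 117 miRNA genes with 1000 or more hairpin reads, whose 5p share had a median of 72.7% and covered the whole range from 0 to 100, 19 had a higher share than Mir181d and 55 a higher share than Mir181c. The value of Mir181c depends on tag length, because most miR-181c-3p tags were short. With tags of 20 to 24 nt alone, 94.97% of the Mir181c reads were 5p. The same window leaves out the main miR-181a-5p tag, which is longer, and kept 397 5p and 83 3p reads of miR-181a. There the 5p share of miR-181a was below that of Mir181c, so the order of these members depends on the lengths counted.

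The main 5p tags were long for miRNAs. They are shown as read, with T for U and with the bases past the annotated 3′ end in capitals, because the members differ at that end.
miR-181a-5p: aacattcaacgctgtcggtgagtTT
miR-181b-5p: aacattcattgctgtcggtgggtt
miR-181c-5p: aacattcaacctgtcggtgagtTT
miR-181d-5p: aacattcattgttgtcggtgggtT
The miR-181a-5p tag is 25 nt and the other 3 are 24 nt, and each matches its hairpin to the last base. They held 592 reads (59.7%, interval 56.6 to 62.8) of miR-181a-5p, 993 (68.0%, 65.6 to 70.4) of miR-181b-5p, 1397 (53.5%, 51.6 to 55.4) of miR-181c-5p and 35007 (77.9%, 77.5 to 78.3) of miR-181d-5p. Tags with the annotated sequence itself were rare except for miR-181b-5p, at 4.04% of miR-181a-5p, 3.68% of miR-181c-5p and 7.22% of miR-181d-5p reads.

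Such lengths were uncommon in the library. Of 265 mature names with 100 or more reads near their annotated start, 16 (6.04%) had a main tag of 24 nt or more, and the 4 miR-181 5p strands were among them. A main tag longer than the annotation by 2 nt or more was found for 9 (3.40%), which include miR-181a-5p and miR-181c-5p. Most names (221, or 83.4%) had a main tag of 21 to 23 nt.

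Secondary lengths also differed between members. miR-181c-5p had 30.1% of its reads at 23 nt beside 53.6% at 24 nt. miR-181a-5p had 21.8% at 24 nt and 9.69% at 22 nt. miR-181b-5p had 12.3% at 25 nt, nearly all of it (179 of 180 reads) the 24 nt tag with a further T, and miR-181d-5p had no other length above 7.48%, its value at 23 nt.

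miR-181c-3p went the other way, with short tags, and its main tag is shown because it makes up most of the short reads of the family.
miR-181c-3p: accatcgaccgttgagtg
This 18 nt tag held 344 of 685 reads (50.2%, interval 46.4 to 54.0), while the annotated 22 nt sequence held 53 (7.74%). By length, 52.4% of the reads were 18 nt, 27.6% were 19 nt and 10.1% were 22 nt. The DMSO list starts at 18 nt, so the most frequent length of this strand may lie below it. A main tag of 18 nt was found for 8 of the 265 names (3.02%), miR-181c-3p being one of them. The other star strands were near full length, with 41 of 88 miR-181a-2-3p reads at the annotated 22 nt sequence and 20 of 36 miR-181d-3p reads in a 20 nt tag.

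**Figure D3:**
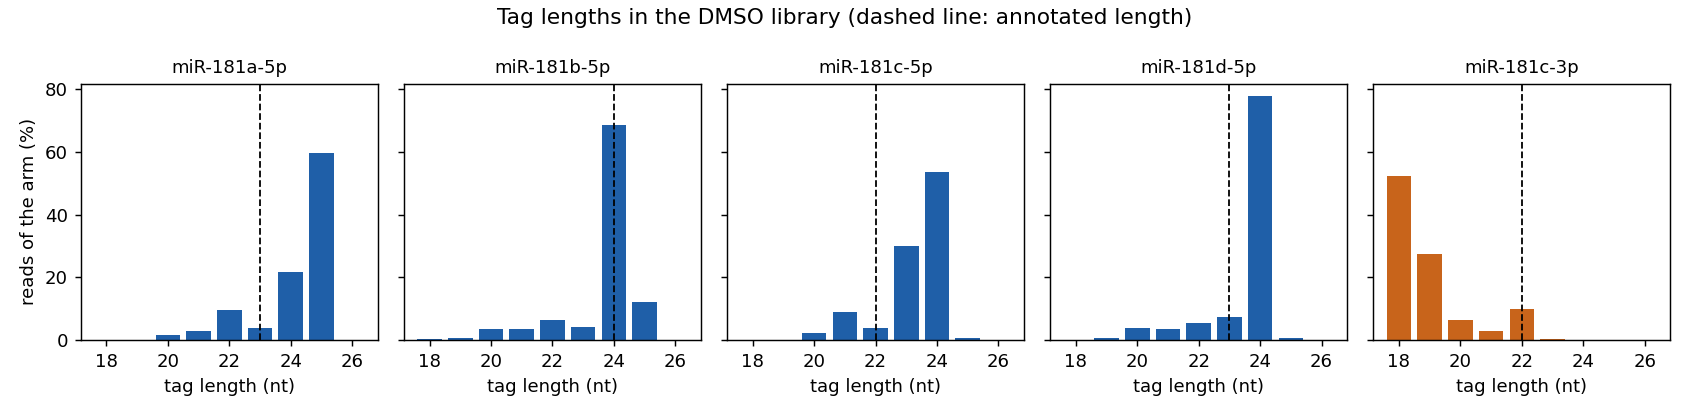
Share of reads at each tag length in nt for the 4 5p strands (blue) and miR-181c-3p (orange) in the DMSO library, with a dashed line at the annotated length. The 5p bars peak at 24 or 25 nt, at or past the line, and the miR-181c-3p bars peak at 18 nt, 4 nt short of it.

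The 5′ ends, which set the seed, were nearly fixed on the 5p arm. The annotated start was used by 99.6% of miR-181d-5p, 99.4% of miR-181c-5p, 99.5% of miR-181a-5p and 97.9% of miR-181b-5p reads. A start 1 base later, which moves the seed by 1 base, was found on 2.12% of miR-181b-5p reads and 0.356% of miR-181d-5p reads. The 3p strands of the chromosome 8 pair were less uniform. For miR-181c-3p, 128 reads (18.7%) began 1 base before the annotated start, and for miR-181d-3p, 20 of 36 reads (55.6%) began 1 base after it.

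Bases that the hairpin does not encode were often found at the 3′ end of miR-181d-5p and seldom on miR-181c-5p. Such tails, here of 1 to 3 nt on a templated part of at least 18 nt, are known to be added by nucleotidyl transferases to mature miRNAs and their precursors. Counted on top of the 44939 exact reads, miR-181d-5p had 4830 reads with A only, 5033 with T only and 1565 with both. Together these were 20.2% of its 56597 reads with tails included. miR-181b-5p had 10.7%, miR-181a-5p 3.50% and miR-181c-5p 1.84%.

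For A alone the shares were 8.53% (interval 8.31 to 8.77) for miR-181d-5p, 5.78% (4.70 to 7.02) for miR-181b-5p, 1.75% (1.04 to 2.75) for miR-181a-5p and 0.563% (0.315 to 0.927) for miR-181c-5p. Tails of C alone or G alone stayed at or below 0.0760% of reads in these 4 strands. Over the 128 arms with 1000 or more reads the median share with A was 3.11% (range 0.0613 to 29.9%), and 16 arms were higher than miR-181d-5p and 117 higher than miR-181c-5p. miR-181c-3p, on the other strand of the same hairpin, had A on 4.79% of its reads (3.36 to 6.60).

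Tails of T are harder to compare. The T-only share was 8.89% (8.66 to 9.13) for miR-181d-5p, against a median of 1.58% over the 128 arms, with 21 arms higher. It was 2.13% for miR-181b-5p, 1.65% for miR-181a-5p and 1.28% for miR-181c-5p. The main tags of miR-181a-5p and miR-181c-5p end in 3 T and that of miR-181d-5p in 2, all encoded by the hairpins. A T added to a shorter form can therefore count as templated in each of them. After these main tags the hairpins encode G, so a T added to the main tag itself counts as untemplated. However, Mir181b-2 encodes the T after the main tag of miR-181b-5p, so an added T counts there as templated. The window ends at 26 nt, which leaves room for 1 added base on the 25 nt tag of miR-181a-5p and for 2 on the 24 nt tags.

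**Figure D4:**
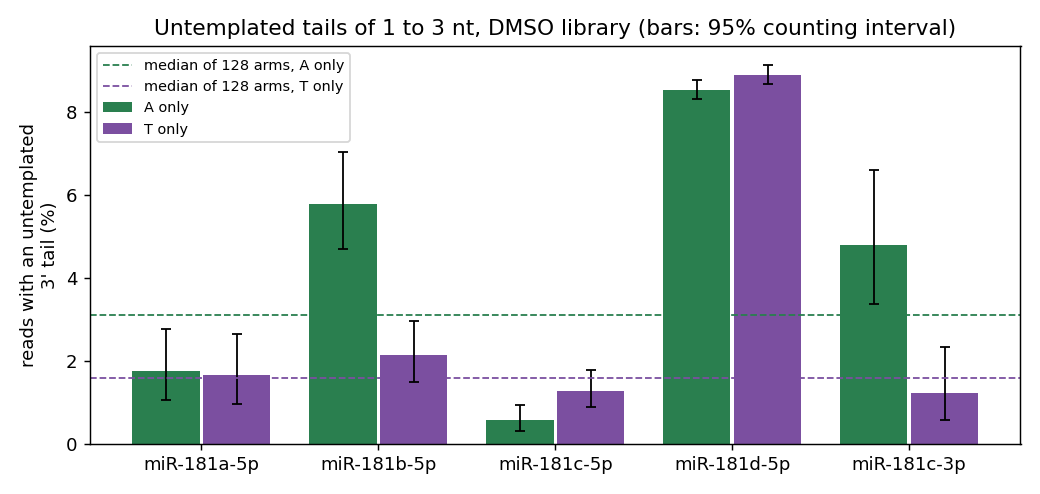
Share of reads with an untemplated 3′ tail of A only (green) or T only (purple) for 5 miR-181 arms in the DMSO library, with 95% counting intervals and dashed lines at the medians of 128 arms, 3.11% and 1.58%. Of these 5 arms miR-181d-5p is highest in both, at 8.53% and 8.89%, and miR-181c-5p is lowest in A, at 0.563%. miR-181d-3p, with 36.2% T only on 58 reads, is not shown.

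The SC1 list holds short fragments of the family, led by a different arm. Of its 53343 hairpin reads of 15 to 17 nt, 203 (0.381%, interval 0.330 to 0.437) matched a miR-181 hairpin, over 15 distinct tags. All but 1 read, which starts near the loop of Mir181d, were the start of a miR-181 tag of the DMSO list. miR-181c-3p had 141 of them (69.5%, 62.6 to 75.7), of which 132 were 17 nt, 9 were 16 nt and 0 were 15 nt. miR-181d-5p had 42 (20.7%, 15.3 to 26.9), with 20 at 15 nt, 9 at 16 nt and 13 at 17 nt.

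The remaining arms had few or no short reads. miR-181b-5p had 8, miR-181a-5p 5 and miR-181a-2-3p 5. The read that starts near the loop of Mir181d lies on the 3p side of the midpoint and is the 1 read counted for miR-181d-3p. Whether it runs into the 3p strand was not checked. The 1 read of miR-181a-1-3p is its part of 2 reads of a tag that also fits miR-181c-3p. miR-181c-5p, miR-181b-1-3p and miR-181b-2-3p had 0. Taking 3 counts as the limit for a count of 0, this allows up to 1.48% of the family's short reads, and the exact interval reaches 1.80%.

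Of the 203 short reads, 72.9% were 3p (interval 66.2 to 78.9), whereas 98.4% of the DMSO reads of 18 to 26 nt were 5p. The lengths differ, so this is not a measured effect of SC1. At 18 nt, the shortest length of the DMSO list, miR-181c-3p also led there, with 359 of 432 miR-181 reads (83.1%), followed by miR-181d-5p with 63 (14.6%) and miR-181b-5p with 7 (1.62%). miR-181c-5p, second by level in DMSO, had 0 reads at 18 nt in DMSO and 0 short reads in the SC1 list.

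**Figure D5:**
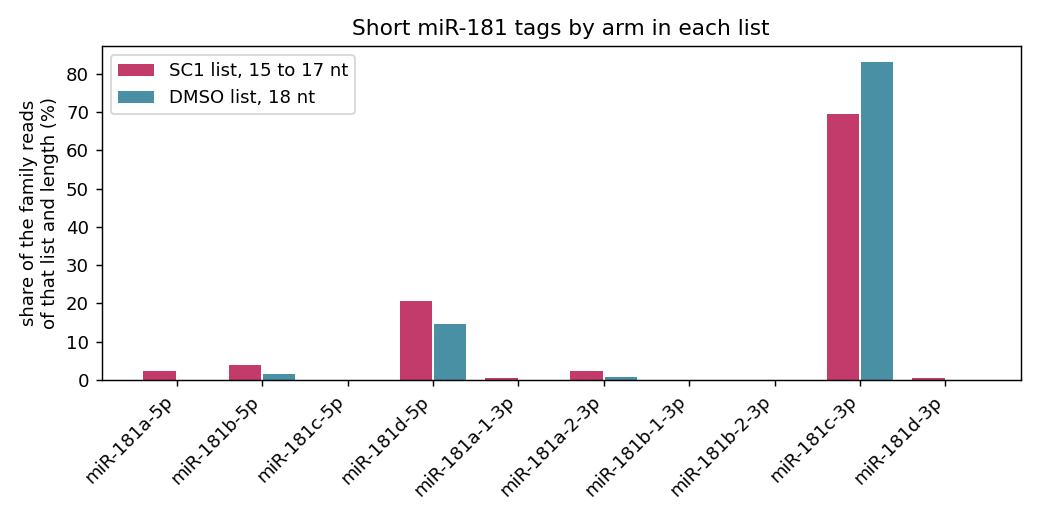
Share of the miR-181 reads held by each arm in the SC1 list at 15 to 17 nt (pink, 203 reads) and in the DMSO list at 18 nt (teal, 432 reads). miR-181c-3p is the highest bar in each list, at 69.5% and 83.1%, and the lists hold different lengths.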

How the data were processed

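For each library the authors deposited distinct sequence tags with raw, unnormalized read counts and tag lengths. A closing line of the DMSO list that holds only its total was left out. Per the submitters' processing notes the build was mm9. The adapter, its trimming, any length filter and the alignment software were not given in the sources used here.

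Exact sense matches of the tags to the hairpins of GENCODE M21 (GRCm38) were used, and coordinates are from that annotation, not from mm9. A tag was given to the arm on whose side of the hairpin midpoint its middle lies. Copies such as Mir181a-1 and Mir181a-2 were counted as 1 gene for 5p levels and for ranks, while their 3p levels are given by copy, and tags that fit several arms were split equally. No DMSO miR-181 tag matched another miRNA hairpin, and 0 reversed tags of either list matched a miR-181 hairpin. The genome sequence was not searched, so matches outside annotated transcripts are not known. This limit weighs most on the SC1 tags, which are the shortest. Of non-miRNA transcripts only A430106G13Rik held miR-181 tags (1272 DMSO reads). Its exon overlaps Mir181a-1 and Mir181b-1, but more reads than this fit those hairpins, so it does not hold all of their tags. Tags that match only chromosome 1 had 5 reads, so nearly all of the 1272 reads also fit a miR-181 hairpin on another chromosome.

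The list totals are those of length classes, not library depths. On simulated reads 452 of 483 arms, and the 7 of 7 miR-181 arms among them, came within 10% of the number drawn. Only arms with a tag of 10 or more reads were drawn, so the 3p arm of miR-181b was not simulated. The simulated reads were cut from the hairpins without sequence errors or tails, in like numbers for each arm, and copies were pooled. They therefore could not check the split between copies or the misreading of miR-181d-5p as miR-181b-5p. Members, lists and alternatives were chosen with earlier results of these data known. The text names all members, both arms, the neighbours of the leading arm in level, and 3 other families as totals. The scripts ran on Python 3.11.15 with scipy 1.17.1 for intervals, matplotlib 3.10.9 for figures and numpy 2.4.6.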

Additional observations from a re-analysis of the deposited data

How the results depend on the processing

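No paired analysis was possible because only 1 library exists for DMSO and 1 for SC1. With no comparison between the lists, other normalizations were not run. The family share of DMSO hairpin reads (2.33%) was 2.37% without tags that fit several arms, 2.60% with untemplated A or T removed, 1.44% by distinct tags, 2.38% with tags of 20 to 24 nt and 0.306% of all reads of 18 to 26 nt. The 5p share (98.4%) was 98.6% with A or T removed, 70.5% by distinct tags, 99.5% at 20 to 24 nt and, in a setting added after seeing the data, 86.6% without Mir181d. Higher minimum reads per tag and windows around the main tag of each arm moved neither beyond its counting interval. The SC1 family share (0.381%) came to 0.314% when tags under 10 reads were dropped, 1.08% at 17 nt alone, 1.92% by distinct tags and, added likewise, 0.116% without Mir181c. The cause of these changes was not tested. Of 96 recomputed values of single arms and hairpins, 30 moved. With A or T removed miR-181d-5p reached 23404 RPM and rank 9 (rank 13 before). At 20 to 24 nt miR-181a-5p, whose main tag that window leaves out, was at 194 RPM, and miR-181c-3p at 66.9 RPM. By distinct tags miR-181d-5p held 26.3% of the family and was at rank 27. The 3p strands with 1 to 3 reads limit what can be said of the chromosome 1 copies.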
